A study of Mus musculus with 25 samples.

Results

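The genes described here are the splicing factor and RNA-binding families Srsf, Hnrnp, Rbm, Rbfox, Celf and Elavl, measured in the CA1 region of the mouse hippocampus after postnatal handling. Members were found by symbol: every probe set that the annotation of the Affymetrix mouse array names for a single gene of these 6 families was taken. This gave 78 genes of 18193 that the array names, with 10 Srsf, 19 Hnrnp, 36 Rbm, 3 Rbfox, 6 Celf and 4 Elavl genes, and 232 of 45037 probe sets. Each gene is represented by its leading probe set, the one with the highest mean log2 signal over the 25 arrays, and the other 154 probe sets belong to 55 of the genes. The symbols Rbm3os and Rbm46os, which are antisense transcripts, also matched the rule. Matching probe sets that the annotation names for several genes, 17 in number, were left out, so that Rbm3 itself, Rbm4, Rbm10 and Hnrnpa3 are not covered.

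Splicing removes introns from the primary transcript and joins exons, and the choice of exons is set in large part by proteins that bind the RNA near the splice sites. SR proteins, the Srsf family, carry a serine and arginine rich tail and often promote the inclusion of exons, whereas hnRNPs coat the nascent transcript and often act as repressors. Rbfox, Celf and Elavl proteins shape splicing, stability and translation of neuronal transcripts. Rbm is a naming group for proteins with an RNA recognition motif and holds splicing factors, nucleolar proteins and parts of RNA decay complexes. Many of these genes also carry exons or introns that regulate their own RNA, so that probe sets of the same gene can read different transcripts.

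All mice were Balb c/J females. Handled mice (n = 11) were taken from their mothers for 15 min a day on postnatal days 1 to 14. Non-handled mice (n = 14) were raised under standard conditions. Both groups were tested for behavior from 8 weeks of age on, in the open field and then in the light-dark test, and the CA1 region was dissected 2 weeks after testing. RNA was extracted with Qiagen RNA/DNA columns from 7 handled and 10 non-handled mice and with Trizol from 4 handled and 4 non-handled mice. RNA from all mice was amplified in 2 rounds before labeling. The mice came from 5 handled and 6 non-handled litters, so that handling was given by litter. The litter of each mouse is not in the labels and was not used here. The p-values therefore treat mice as independent and cover the spread between these mice. For handling they can be too small if littermates are alike. During the separation pups and dams stayed in fresh cages, and the removal from the home cage cannot be told apart from the removal from the dam.

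Signal was read as log2 of the deposited array signal, and a change is the difference of group means from a model with handling and extraction as terms (limma), given with its standard error (SE). A change was called where the p adjusted by Benjamini-Hochberg, taken across all 45037 probe sets, was under 0.05. Leading probe sets of members lay high in the range of signal, with a median at the 90.2 percentile against 65.1 for the leading probe sets of all genes, and 71 of 78 lay in the upper 50%. The spread of log2 signal over an array differed with handling: the standard deviation was 2.82 to 2.97 in handled and 2.44 to 2.79 in non-handled mice with columns, and 2.57 to 2.78 against 2.43 to 2.57 with Trizol. Members are therefore set beside all genes and also beside the 7021 genes with a leading probe set in the upper 25% of mean signal. One mouse stood apart in RNA quality: in non-handled mouse NH162 the natural log of the 3′ to 5′ signal ratio of Actb was 2.24, against 1.09 to 1.40 in the other non-handled mice with columns (a higher ratio means less complete transcripts). Without this mouse 15 leading probe sets were higher with handling, against 17 with it. The same ratio for Gapdh differed with extraction. Its median was 0.83 in handled and 0.88 in non-handled mice with columns, against 1.22 and 1.19 with Trizol. With both ratios as covariates 7 members were higher and 27 lower with columns, against 9 and 31 without them. For handling 12 members were higher and 2 lower with these covariates, against 17 and 2 without them. RNA quality and extraction cannot be fully told apart. The mean log2 signal of 6 CA1 pyramidal cell markers ran from 9.29 (Spink8) to 13.51 (Wfs1), that of 5 dentate granule cell markers from 5.33 (Dsp) to 9.28 (Lct) and that of 5 CA3 markers from 5.87 (Iyd) to 8.51 (Bok). With columns all 6 astrocyte, all 5 oligodendrocyte, 5 of 6 microglia and 3 of 5 interneuron markers were higher than with Trizol. Of 6 CA1 pyramidal markers 4 were higher and 1 lower, and of 6 pan-neuronal markers 2 were higher and 1 lower. CA3 and endothelial markers had 1 higher and 1 lower each, and 1 dentate granule cell marker was lower. Of all genes in the upper 25% of mean signal 45.9% were higher with columns and 24.1% lower. With handling 2 of 5 interneuron markers were higher (Gad2 by 0.86 and Gad1 by 0.30) and 1 lower (Pvalb, -0.32), 2 of 5 choroid plexus markers (Folr1 and Clic6) and 1 endothelial marker (Cldn5) were lower, and 1 pan-neuronal, 1 astrocyte and 1 microglia marker were higher. The part of these shifts in the members' changes was not tested. In tissue RNA, fewer cells of a type and less RNA per cell cannot be told apart.

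**Figure D1:**
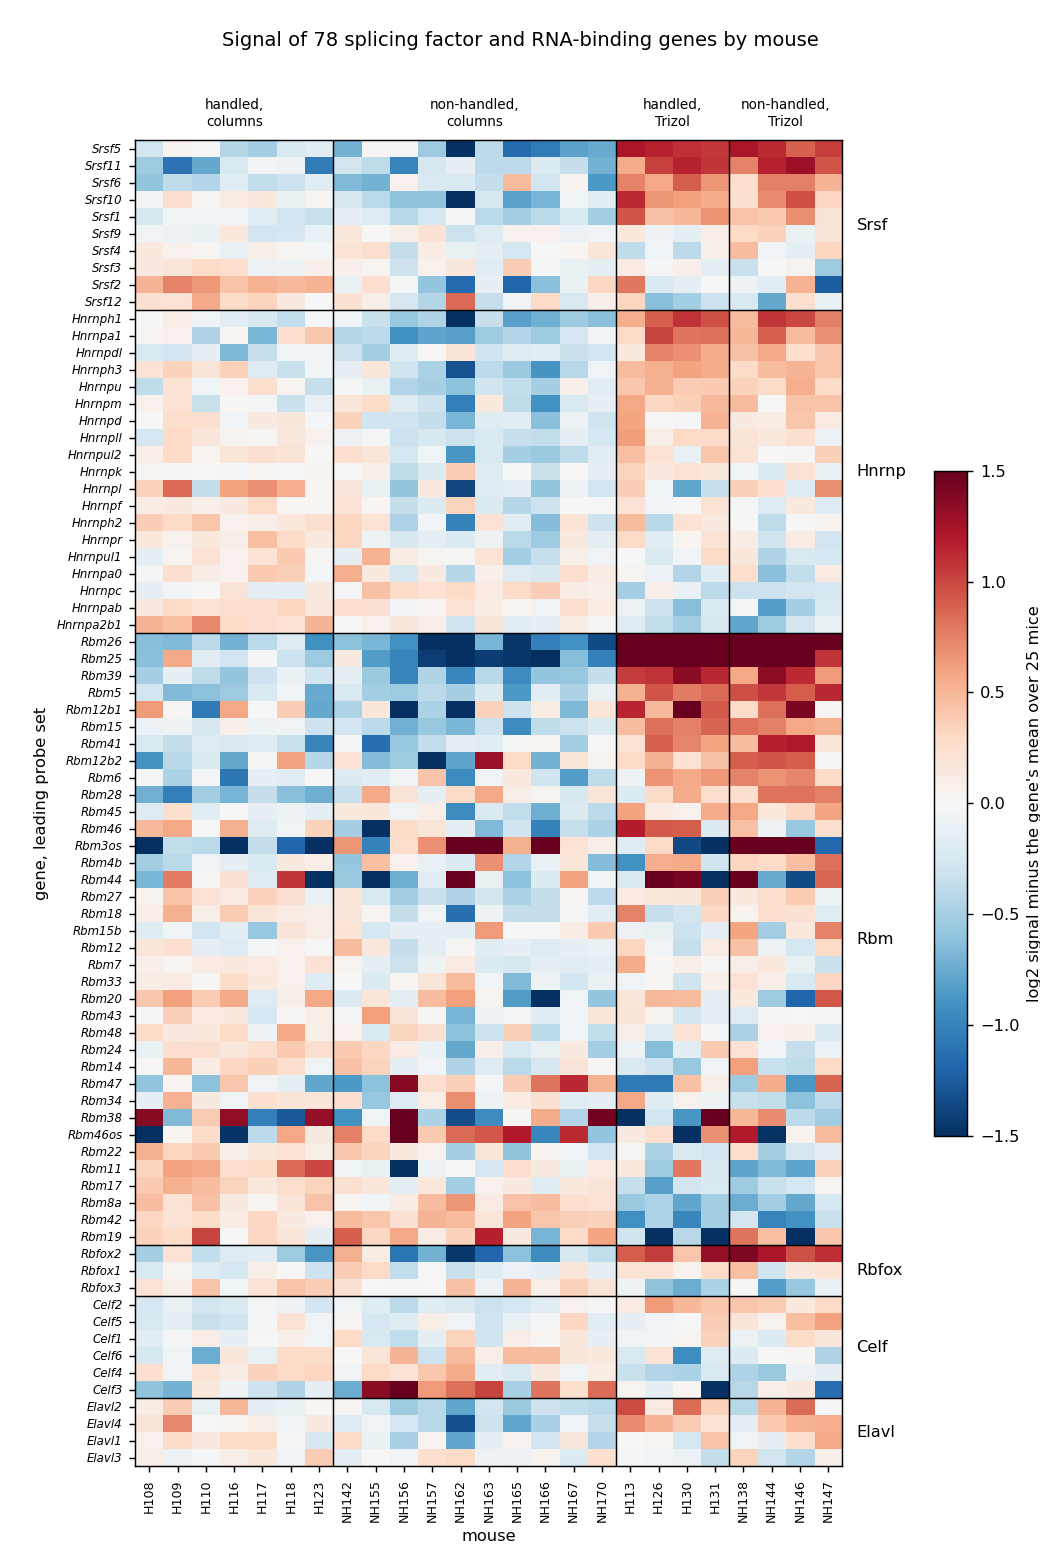
Log2 signal of the leading probe set of each of the 78 genes (rows, by family and, within a family, by the change with extraction) in each mouse (columns, by handling and extraction), as the difference from the gene's mean over 25 mice. The 8 Trizol mice on the right stand apart from the 17 mice extracted with columns in many Srsf, Hnrnp and Rbm rows, while the step between handled and non-handled mice is smaller and clearest among the mice extracted with columns.

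Handling was associated with higher signal of splicing factor genes more often than with lower signal. Of 78 leading probe sets 17 were called higher in handled mice and 2 lower, with a median change of 0.14 over all 78. Among leading probe sets of all genes 4.47% were called higher and 9.7% lower, with a median change of -0.12. In the upper 25% of mean signal, 16 of 58 members were higher (27.6%) and 1 lower, against 10.6% higher and 9.09% lower of all genes in that range. Over all 232 probe sets of members 38 were higher and 11 lower, against 3.58% and 7.93% of all probe sets on the array. The calls followed the families unevenly: 7 of 19 Hnrnp, 6 of 36 Rbm, 2 of 10 Srsf and 2 of 4 Elavl genes were higher, and 0 of 3 Rbfox and 0 of 6 Celf genes were called (limma; 1 Celf gene and 0 Rbfox genes had an unadjusted p under 0.05). The called rises ran from 1.17-fold to 1.67-fold. All 17 were positive within columns and within Trizol taken alone, with a median change of 0.48 with columns and 0.18 with Trizol. These 17 were chosen for their rise over the same mice, so their signs and medians within an extraction are no separate check. Among the Trizol mice alone, 4 against 4, no member was called. In 3 of the 17 every handled mouse lay above every non-handled mouse with columns, and in 0 with Trizol. The share of all genes with such gaps, in either direction, is not given, so they do not place members against the array.

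The number of calls depended on how arrays were scaled to each other. Handling moved the median of all probe sets by -0.15 on the deposited scale, by 0.02 after quantile normalization and by 0.13 after centering each array on its median. When the log2 signal of each array was brought to a common mean and variance, 8 members were higher and 4 lower. Among the calls lost on that scale were those of Hnrnpa2b1 (0.12), Hnrnpll (0.14), Rbm7 (0.15), Hnrnph3 (0.34), Elavl2 (0.35) and Elavl4 (0.37). With arrays centered on the median 42 were higher and 2 lower. Shares of all genes called are not given for these scalings, so these counts do not show how members stood against the array.

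**Figure D2:**
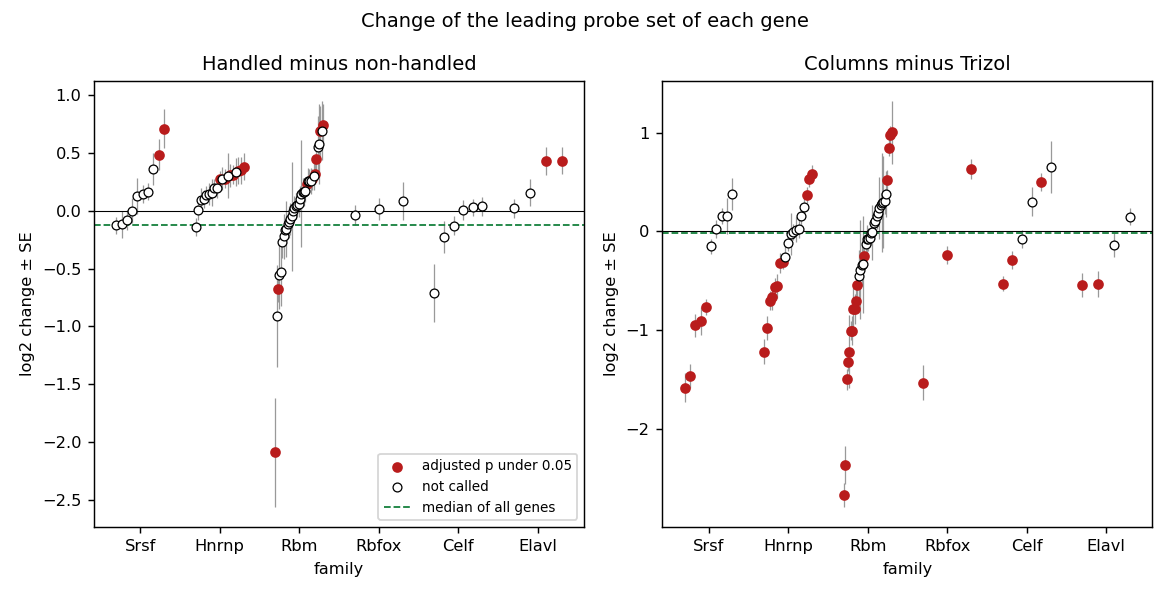
Log2 change ± SE of the leading probe set of each gene by family, for handled minus non-handled mice (left) and columns minus Trizol (right), with genes called at an adjusted p under 0.05 filled and the median of all genes dashed. The filled points on the left are 17 above 0 and 2 below, and those on the right are 9 above 0 and 31 below.

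Among the SR proteins, Srsf2 (SC35), a core component of nuclear speckles, changed most. With columns its log2 signal was 11.66 to 11.98 (median 11.76) in handled and 10.06 to 11.55 (median 11.13) in non-handled mice. With Trizol it was 12.04, 11.02, 11.11 and 11.23 in the handled mice and 11.16, 11.08, 11.77 and 10.00 in the non-handled mice. The groups did not overlap with columns and overlapped with Trizol. The change was 0.71 ± 0.17, or 1.63-fold (limma adjusted p = 0.00691), and it was 0.24 and not called at the brightest Srsf2 probe set whose name does not end in _s_at or _x_at (endings that mark probes shared between transcripts or sequences). The mean over its probe sets was 0.36 and not called.

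Srsf10, an SR protein that can act as a splicing repressor, read 10.57 to 10.92 (median 10.71) in handled and 8.84 to 10.60 (median 10.16) in non-handled mice with columns. With Trizol the handled mice read 11.78, 11.33, 11.28 and 11.22 and the non-handled mice 10.90, 11.38, 11.63 and 10.97. The groups overlapped under both extractions, and the change was 0.48 ± 0.14 (limma adjusted p = 0.0192), while the mean over its 4 probe sets was 0.27 and not called. Srsf1 and Srsf3, the best known members of the family, were not called at their leading probe sets, with changes of 0.16 ± 0.07 and 0.15 ± 0.08. Other probe sets of Srsf1 were higher in handled mice in 4 of 6 cases, the brightest of these by 0.62 ± 0.10 (limma adjusted p = 0.000125).

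The hnRNP rises at leading probe sets were modest and similar in size. Hnrnpa2b1, which binds RNA in the nucleus and takes part in the transport of transcripts into dendrites, read 13.01 to 13.52 (median 13.24) in handled and 12.49 to 12.98 (median 12.83) in non-handled mice with columns. With Trizol it read 12.60, 12.42, 12.27 and 12.54 in handled and 12.01, 12.25, 12.52 and 12.68 in non-handled mice. The groups did not overlap with columns, and the change was 0.31 ± 0.08, or 1.24-fold (limma adjusted p = 0.0142). With a common mean and variance per array the change of Hnrnpa2b1 was 0.12 and not called (limma adjusted p = 0.422). Hnrnph3, of the hnRNPs that bind runs of G, read 10.58 to 11.25 (median 11.11) in handled and 9.61 to 11.08 (median 10.51) in non-handled mice with columns. With Trizol it read 11.38, 11.44, 11.51 and 11.47 against 11.20, 11.37, 11.42 and 11.32, and its change was 0.38 ± 0.12 (limma adjusted p = 0.0308). With RNA quality ratios as covariates its change was 0.25 and not called (limma adjusted p = 0.120). The call for Hnrnph3 was also lost, at 0.35 to 0.36, without any single one of H108, H109, H110, H116 and NH166 (H marks handled and NH non-handled mice). Hnrnph1 (0.35), Hnrnpa1 (0.35), Hnrnpul2 (0.31), Hnrnpr (0.28) and Hnrnpll (0.27) were also higher at their leading probe sets. Their other probe sets did not all follow: -0.07 in Hnrnph1, -0.56 and 0.44 in Hnrnpa1 and -0.22 in Hnrnpul2. Those of Hnrnpr (0.19 to 0.30) and Hnrnpll (0.37) were above 0. Hnrnpk, an hnRNP that binds runs of C, was not called at its leading probe set, with 0.14 ± 0.08.

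Of the Elavl (Hu) proteins, which bind AU-rich RNA and stabilize transcripts, the neuronal genes Elavl2 and Elavl4 rose. Elavl2 read 11.27 to 11.89 (median 11.42) in handled and 10.62 to 11.44 (median 11.01) in non-handled mice with columns, and 12.37, 11.52, 12.23 and 11.75 against 10.98, 11.91, 12.23 and 11.37 with Trizol. Elavl4 read 11.02 to 11.79 (median 11.16) against 9.75 to 11.01 (median 10.73) with columns, and 11.77, 11.57, 11.45 and 11.28 against 10.93, 11.46, 11.59 and 11.62 with Trizol. Elavl4 separated the groups with columns only narrowly (11.02 against 11.01), whereas Elavl2 overlapped under both extractions. Their changes were 0.43 ± 0.12 and 0.43 ± 0.12 for Elavl2 and Elavl4 (limma adjusted p = 0.0148 and 0.0189). With a common mean and variance per array they were 0.35 and 0.37, neither called (limma adjusted p = 0.0636 and 0.0584). The mean over all probe sets of Elavl2 was -0.04, and that over Elavl4 was 0.25, neither called. With RNA quality ratios as covariates the change of Elavl4 was 0.29 and not called (limma adjusted p = 0.0669). The neuronal gene Elavl3 (0.02 ± 0.08) and the widely expressed Elavl1, or HuR (0.16 ± 0.11), were not called.

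**Figure D3:**
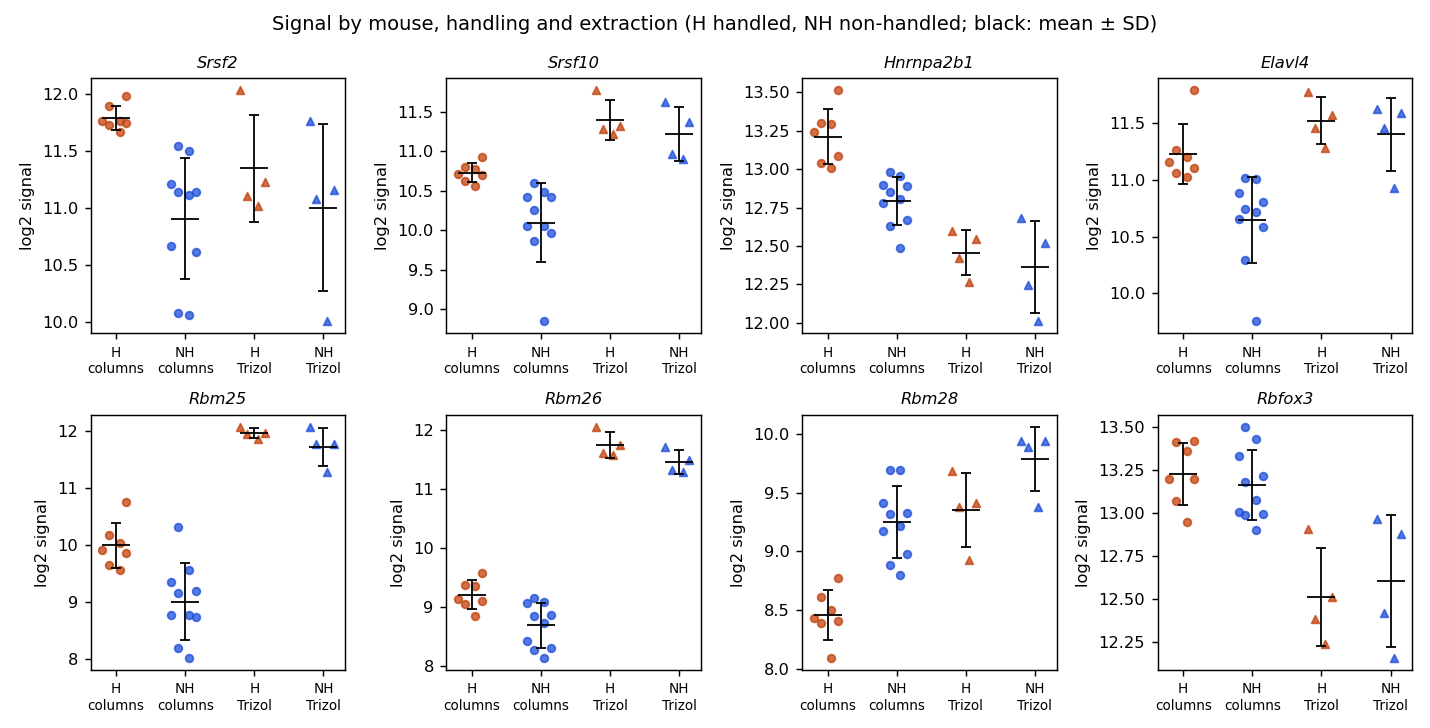
Log2 signal in each mouse at the leading probe set of 8 members, by handling (H handled, NH non-handled) and extraction, with the mean ± SD in black. With columns Srsf2, Hnrnpa2b1 and Elavl4 lie higher and Rbm28 lower in every handled mouse than in any non-handled mouse, and Rbm25 and Rbm26 lie far lower with columns than with Trizol.

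The Rbm genes held the largest rise, that of Rbm25, and both falls. Rbm25, a splicing factor that binds exon sequences, read 9.57 to 10.77 (median 9.91) in handled and 8.01 to 10.33 (median 8.97) in non-handled mice with columns. With Trizol it read 12.08, 11.97, 11.95 and 11.86 against 11.78, 11.77, 12.08 and 11.28. The groups overlapped under both extractions, and the change was 0.74 ± 0.18, or 1.67-fold (limma adjusted p = 0.00825). Rbm26, a zinc finger protein linked to the decay of polyadenylated nuclear RNA, read 8.85 to 9.58 (median 9.13) against 8.13 to 9.15 (median 8.80) with columns. With Trizol it read 11.62, 11.76, 12.06 and 11.59 against 11.33, 11.72, 11.50 and 11.29, and its change was 0.44 ± 0.11 (limma adjusted p = 0.0111). The mean over its 4 probe sets was 0.09 and not called.

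Rbm11, a splicing regulator found mainly in brain and testis, was dimmer, at 7.35 to 8.10 (median 7.66) in handled and 5.04 to 7.36 (median 7.03) in non-handled mice with columns. Its change of 0.69 ± 0.22 (limma adjusted p = 0.0396) was not called with RNA quality ratios as covariates (adjusted p = 0.0772) and missed the threshold when any single one of 11 mice was left out, with adjusted p up to 0.0699 (H108, H109, H110, H113, H118, H123, H130, NH138, NH144, NH146 and NH163). Rbm27, a relative of Rbm26, rose by 0.32 at its leading probe set, while the mean over its probe sets was -0.27 and not called. Rbm15, part of the complex that writes N6-methyladenosine on RNA, rose by 0.27. Rbm7, part of a nuclear complex that hands RNA to the exosome, rose by 0.23, and its call was lost without H113 (0.19), H123 (0.22) or NH147 (0.20).

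Rbm28, a nucleolar protein, fell. With columns it read 8.09 to 8.78 (median 8.44) in handled and 8.80 to 9.70 (median 9.27) in non-handled mice, and with Trizol 8.93, 9.41, 9.68 and 9.38 against 9.38, 9.94, 9.94 and 9.89. The groups did not overlap with columns, and the change was -0.68 ± 0.11, or 1.60-fold lower (limma adjusted p = 0.000236), while the mean over its probe sets was -0.19 and not called. The antisense transcript Rbm3os was lower by -2.09 ± 0.47 (limma adjusted p = 0.00416), at a signal near the low end of the array (the 15.5 percentile). With columns it read 1.91 to 4.08 in handled and 3.42 to 7.32 in non-handled mice, and with Trizol 4.25, 4.73, 3.09 and 2.15 against 6.76, 6.25, 6.12 and 3.26. These groups overlapped under both extractions.

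The Rbfox genes, regulators of neuronal exons, were not called at their leading probe sets, where the changes were -0.04 ± 0.09 for Rbfox1, 0.08 ± 0.17 for Rbfox2 and 0.01 ± 0.09 for Rbfox3, the gene of the neuronal marker NeuN. The other 3 probe sets of Rbfox2 lay at -1.04, -0.68 and -0.29, of which the one at -0.68 was called lower (limma adjusted p = 0.0224), and the mean over the 4 probe sets was lower by -0.48 (limma adjusted p = 0.0397). Among the Celf genes, which bind GU-rich RNA, the changes were 0.01 ± 0.08 for Celf1, 0.03 ± 0.07 for Celf2, 0.04 ± 0.08 for Celf4, -0.13 ± 0.08 for Celf5 and -0.23 ± 0.14 for Celf6. Celf3 read 7.71 to 8.58 (median 8.12) in handled and 7.68 to 9.94 (median 9.23) in non-handled mice with columns. Its change of -0.71 ± 0.25 missed the threshold (limma adjusted p = 0.0619) and passed it without any single one of H113, H126, H130, NH142, NH147 and NH165 (changes of -0.81 to -0.78).

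The upstream 250 bases of 3 members are shown as sequence context: of Srsf2, the SR protein with the largest rise, of Hnrnpa2b1, whose probe sets parted most clearly by extraction, and of Rbm39, the member with the most probe sets. They are from RefSeq on GRCm38.p6, 5′ to 3′ on the strand of the gene, at chr11:116853095-116853344 (minus strand), chr6:51469895-51470144 (minus strand) and chr2:156180239-156180488 (minus strand). Capitals mark GGGCGG (the GC box) or TGACGT (the core of the cyclic AMP response element) on either strand. Where motifs overlap, their capitals run together.
Srsf2: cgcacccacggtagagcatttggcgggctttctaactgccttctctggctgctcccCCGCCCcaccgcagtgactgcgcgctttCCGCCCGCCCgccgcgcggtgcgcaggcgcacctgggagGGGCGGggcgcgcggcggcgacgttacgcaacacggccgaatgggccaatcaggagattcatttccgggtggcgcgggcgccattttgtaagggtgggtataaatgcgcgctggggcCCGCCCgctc
Hnrnpa2b1: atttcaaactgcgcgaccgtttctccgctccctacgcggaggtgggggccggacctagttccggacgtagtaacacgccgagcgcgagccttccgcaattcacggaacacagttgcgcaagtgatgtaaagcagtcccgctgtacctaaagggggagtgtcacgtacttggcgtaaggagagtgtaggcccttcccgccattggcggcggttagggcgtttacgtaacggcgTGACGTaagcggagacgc
Rbm39: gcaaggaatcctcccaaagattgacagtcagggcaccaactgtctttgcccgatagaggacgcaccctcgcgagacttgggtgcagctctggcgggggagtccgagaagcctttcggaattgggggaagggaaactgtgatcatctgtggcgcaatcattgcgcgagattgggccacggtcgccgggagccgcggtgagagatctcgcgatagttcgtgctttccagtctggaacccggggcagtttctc
Srsf2 held 5 GC boxes and Hnrnpa2b1 held 1 TGACGT, while Rbm39 held neither. RefSeq windows matched 67 of the 78 members, and the first listed window of each gene was used. For 16 of them more than 1 window was listed, with 2 each for Hnrnpa2b1 and Rbm39. The motif counts hold for the window used. GGGCGG was present in 34 of the 67 (50.7%) against 32.9% of 27025 genes with a window, and TGACGT in 12 of the 67 (17.9%) against 6.56%. The median GC content was 60.8% in members and 52.0% in all genes. Of the 14 matched members that rose with handling, 7 held GGGCGG, 4 TGACGT, 8 CCAAT, 2 TATAAA and 0 CCGGAAG.

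More members were called by extraction than by handling, most of them lower with columns. Of 78 leading probe sets 31 were lower with columns than with Trizol and 9 higher, against 17.5% lower and 23.7% higher of the leading probe sets of all genes. In the upper 25% of mean signal 28 of 58 members were lower (48.3%) and 8 higher (13.8%), against 24.1% lower and 45.9% higher of all genes in that range. Over all 232 probe sets 111 were lower and 30 higher, against 23.3% and 16.5% on the whole array. A fall of over 2 log2 units, or 4-fold, was called at 33 member probe sets of 14 genes (14.2%), against 6.94% of all probe sets. Probe sets of the same gene are counted separately here. At some Rbm25 and Rbm39 probe sets the lowest signal with columns was 2.17 to 3.28. With 50 added to every signal before the log, their changes were -2.50 to -2.05, against -3.70 to -3.08 without it. In 12 leading probe sets every mouse extracted with columns lay below every Trizol mouse, and in 2, Rbm42 and Rbm8a, above, against 4.75% below and 5.18% above of the leading probe sets of all genes. The balance turned with one scaling: extraction moved the median of all probe sets by -0.16 on the deposited scale and by 0.31 after centering arrays on the median, where 34 members were higher and 14 lower. With a common mean and variance per array 16 were higher and 29 lower. Shares of all genes called are not given for these scalings.

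The largest falls were in Rbm26, Rbm25 and Srsf5. Rbm26 read 8.13 to 9.58 (median 9.06) with columns and 11.29 to 12.06 (median 11.60) with Trizol, a change of -2.67 ± 0.12, or 6.35-fold lower (limma adjusted p = 1.89e-18). Rbm25 read 8.01 to 10.77 (median 9.56) against 11.28 to 12.08 (median 11.91), a change of -2.37 ± 0.19 (limma adjusted p = 4.63e-12). Srsf5, an SR protein, had a median of 12.53 (lowest 11.13) with columns and read 13.83 to 14.18 (median 14.06) with Trizol, a change of -1.59 ± 0.15 (limma adjusted p = 5.9e-11). None of these ranges overlapped. Rbfox2 (-1.53), Rbm39, a partner of splice site recognition factors (2.83-fold lower), Srsf11 (-1.47), Rbm5, a regulator of apoptotic splicing (-1.33), and Rbm12b1 (-1.22) followed, and Rbfox2 and Rbm12b1 overlapped between extractions. The fall of Rbfox2 was seen at its leading probe set alone: the other 3 changed by -0.32 to 0.32, none called, and the mean over the gene was -0.38 and not called (limma adjusted p = 0.0760). Of the 17 members that rose with handling, 11 were among those lower with columns, 1 (Hnrnpa2b1) was higher and 5 were not called.

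The rises were smaller. Rbm42 read 9.99 to 10.54 (median 10.24) with columns and 8.93 to 9.65 (median 9.21) with Trizol, a change of 0.98 ± 0.09 (limma adjusted p = 1.03e-10). Rbm8a (Y14), a core protein of the exon junction complex, read 10.65 to 11.36 (median 10.91) against 9.91 to 10.43 (median 10.16), a change of 0.85 ± 0.09 (limma adjusted p = 9.14e-10). Neither gene overlapped between the extractions. Rbm19, a nucleolar protein, rose by 1.00 with ranges that overlapped (6.41 to 8.27 against 4.07 to 7.91). Rbfox3 (0.63), Hnrnpa2b1 (0.58), Hnrnpab (0.53), Rbm17 (0.52), Celf4 (0.50) and Hnrnpc (0.37) were also higher. Unlike Rbfox3, Rbfox1 was lower by -0.24 ± 0.09 (limma adjusted p = 0.0415), a call that was lost when any single one of 14 mice was left out and that turned to 0.23 after centering on the median.

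The effect of handling was not shown to differ between the extractions at any single leading probe set. The interaction was called at 0 of 78 (limma, 6 had an unadjusted p under 0.05). It was called at 1 of 232 probe sets, against 0.0511% of all probe sets. Its estimate, columns minus Trizol, was above 0 at 58 of 78 (median 0.16), against 8907 of 18193 for all genes (median -0.01). In the upper 25% of mean signal these were 44 of 58 members (median 0.15) and 4025 of 7021 genes (median 0.04). The changes with handling in Trizol mice and in mice extracted with columns were 0.24 and 0.99 for Rbm25 and 0.35 and 0.89 for Srsf2. The single call was the _x_at probe set of Hnrnpk, whose values are given with those of the other probe sets. It was lost without any single one of H108, H109, H110, H116, H126, H130, H131, NH144, NH147, NH163 and NH165.

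The probe sets of a gene were compared with its leading one. For extraction 120 of 154 had the same sign as the leading probe set (77.9%, against 64.6% of all pairs), and 63 differed from it in the size of the change (40.9%, against 28.4% of 16752 such pairs on the array). For handling 97 of 154 had the same sign (63.0%, against 60.0% of all pairs) and 9 differed in size, against 5.95% of all pairs, so that both shares lay near those of the array. Of the 63 that differed by extraction, 43 fell more than the leading probe set and 20 less or rose. The change with extraction ranged over a median of 0.94 log2 units among probe sets of a gene. Over all 25 mice the log2 signal of an other probe set and the leading one had a median correlation of 0.33 over the 55 genes, and 0.15 after the means of the 4 groups by handling and extraction were removed, which describes probe sets read on the same arrays. In 6 of the 55 genes probe sets were called in opposite directions for extraction, against 7.44% of all 9010 genes with more than 1 probe set.

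Hnrnpa2b1 was the clearest of these. Its leading probe set rose with columns (0.58 ± 0.09), whereas the other 3 fell by -3.73 ± 0.10, -2.93 ± 0.12 and -2.37 ± 0.15. The probe set with the largest fall read 7.97 to 8.99 (median 8.45) with columns and 11.74 to 12.58 (median 12.31) with Trizol, with no overlap. Its change differed from that of the leading probe set by -4.31 ± 0.14 (limma adjusted p over all pairs = 9.19e-17). With handling all 4 probe sets were above 0, at 0.31, 0.51, 0.30 and 0.12, and 3 were called.

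In Hnrnpu (SAF-A), which binds chromatin-associated RNA, one probe set read 1.72 to 6.32 with columns and 10.38 to 11.28 with Trizol, with no overlap. The signal with columns reached the low end of the array, where its size is not measured well, so that the fitted change of -6.80 is no estimate of the fall. With 50 added to every signal before the log, the change was -4.66 ± 0.18. The leading probe set changed by -0.56 ± 0.09. The other probe sets of Hnrnpu lay between, from -2.67 to -0.68. In Rbm33 a probe set read 4.59 to 7.75 (median 6.53) with columns and 10.07 to 10.87 (median 10.69) with Trizol (-4.14 ± 0.25), while the leading one was not called (-0.02 ± 0.12). All 12 probe sets of Rbm39 were called lower, the leading one least and another most, at -4.10, so that they differed in size but not in direction. Further large differences from the leading probe set were found in Hnrnpdl (-2.87), Celf2 (-2.70), Rbm4b (-2.49) and Srsf11 (-2.43). Rbm26 went the other way: its leading probe set fell most and the other 3 fell by 1.36 to 2.29 log2 units less.

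**Figure D4:**
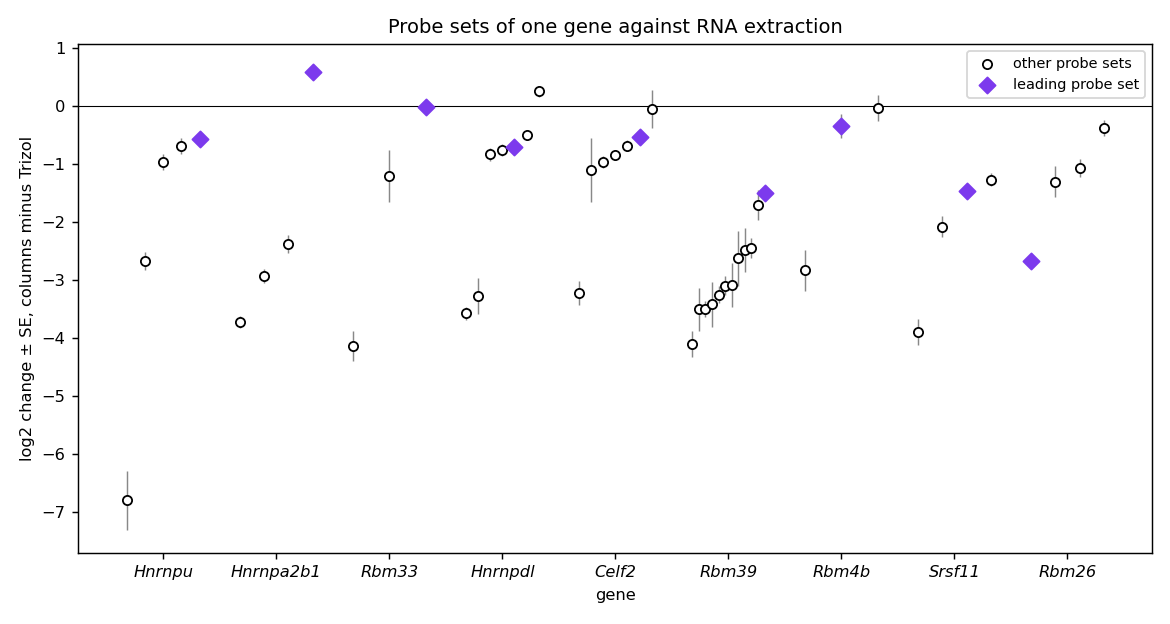
Log2 change ± SE with extraction (columns minus Trizol) of every probe set of 9 genes, with the leading probe set as a diamond. Hnrnpa2b1 has its leading probe set above 0 and its other 3 below -2, one Hnrnpu probe set lies at -6.80 with signal at the low end of the array with columns (its change was -4.66 with 50 added to the signal), and all 12 Rbm39 probe sets lie below 0.

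Handling separated fewer probe sets of a gene. In Hnrnpk the leading probe set changed by 0.14 ± 0.08, while an _x_at probe set changed by -1.87 ± 0.21 (limma adjusted p = 5.57e-07). This probe set read 9.99 to 10.56 (median 10.32) in handled and 12.01 to 13.12 (median 12.88) in non-handled mice with columns. With Trizol it read 10.71, 12.61, 12.06 and 12.23 in handled and 12.87, 12.70, 13.11 and 11.67 in non-handled mice. The groups lay far apart with columns and overlapped with Trizol, and the change was -2.44 ± 0.12 with columns and -0.68 ± 0.35 with Trizol alone, an interaction of -1.76 ± 0.34 (limma adjusted p = 0.0287). The ending _x_at marks a probe set with probes that can match other transcripts, and another Hnrnpk probe set rose by 0.41 ± 0.09.

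Rbm28 parted as well: its second probe set changed by 0.29 ± 0.12, against -0.68 at the leading one, a difference of 0.97 ± 0.16 (limma adjusted p over all pairs = 0.000924). The second probe set read 7.64 to 8.18 in handled and 7.17 to 7.75 in non-handled mice with columns, and 8.32, 8.82, 8.71 and 8.86 against 8.74, 8.73, 8.83 and 8.71 with Trizol. The remaining differences from the leading probe set were those of Rbm12b1 (-2.25), Hnrnpl (-1.58), Rbm27 (-1.26), Elavl1 (-1.14), Rbm26 (-0.79), Hnrnpc (0.61) and Srsf1 (0.45). The places of these probe sets in their transcripts were not analysed here, and the part of transcript ends, unspliced RNA or cross-hybridization in the differences was not tested.

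**Figure D5:**
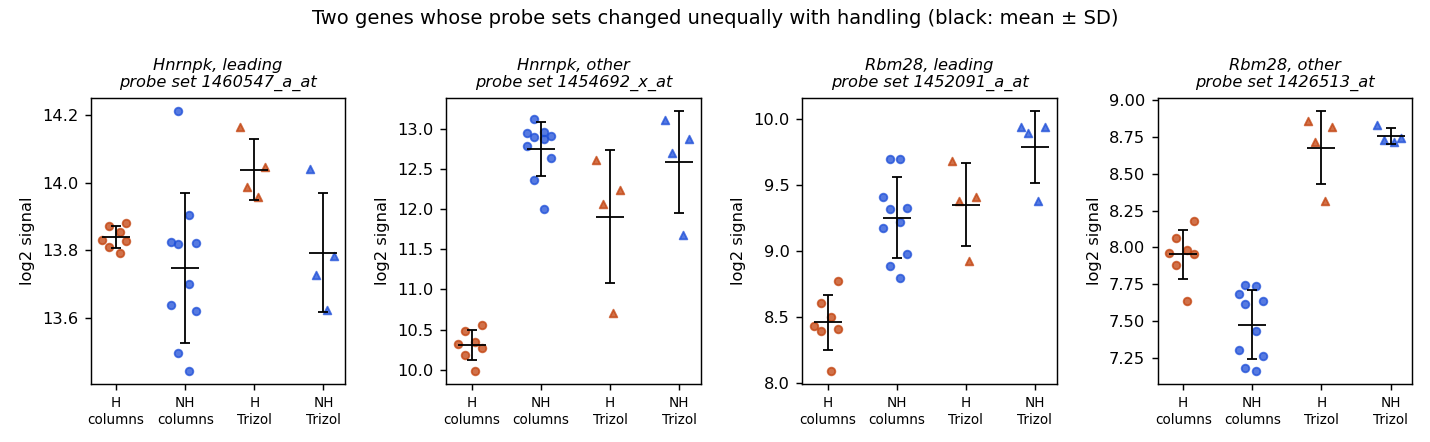
Log2 signal in each mouse at the leading and another probe set of Hnrnpk and Rbm28, by handling (H handled, NH non-handled) and extraction, with the mean ± SD in black. With columns the _x_at probe set of Hnrnpk reads at most 10.56 in handled and at least 12.01 in non-handled mice, and the leading probe set of Rbm28 is lower in handled mice while its second one, at 0.29, was not called.

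Genes outside the families that act in the same steps were set beside them. Of 20 SR kinases and SR-related proteins, 17 were lower and 1 higher with columns (median -0.79), and 4 were higher and 1 lower with handling. For comparison, 45.9% of all genes in the upper 25% of mean signal were higher with columns and 24.1% lower. Pnisr, a serine and arginine rich protein, changed by -3.49 with extraction and 0.59 with handling, Tra2b, a splicing activator, by -0.50 and 0.27, and the kinase Clk3 by -0.40 and -0.41. Of 38 core spliceosome genes, 18 were higher and 7 lower with columns (median 0.28), and 3 were higher and 3 lower with handling, among them Sf3b4 (-0.97) and Snrpb (-0.46) lower and Prpf38a (0.41) higher. Of 41 other RNA-binding proteins of brain, 9 were higher and 18 lower with columns, and 6 were higher and 3 lower with handling, among them Khdrbs1 (0.43) and Tial1 (0.46) higher and Ptbp1 (-2.42), a repressor of neuronal exons, lower. With 47.4% higher and 18.4% lower with columns, the core spliceosome genes lay near the share of all genes of high signal. Of the SR-related proteins 85% were lower. With handling 10.6% of all genes of high signal were higher and 9.09% lower. The core spliceosome genes (7.89% each way) and other RNA-binding proteins (14.6% and 7.32%) lay near these shares. Of the SR-related proteins 20% were higher and 5% lower. The lists also held genes below the upper 25% of mean signal, such as Dhx38 at the 44.7 percentile.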

How the data were processed

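The 25 arrays hold 1 value per probe set and mouse. The authors made the deposited signal intensity values with the Affymetrix MAS algorithm in Expression Console, 1 scaling factor per array and no distribution normalization. Groups came from the sample titles, and extraction from the label text, which names positions in the list of samples. Tests did not include 64 control probe sets. The log2 signal was fitted with limma 3.58.1 (trend in the prior) with handling and extraction as terms, with their product for the interaction, and as the difference of other minus leading probe set for unequal changes. Calls used two-sided p-values, Benjamini-Hochberg adjusted over 45037 probe sets or 16752 pairs. The fit was tested on simulated data. Gene names came from the platform annotation, and 0 member symbols changed on update. Precision rests on the number of mice and, for handling, also on the number of litters.

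Members and lists were chosen with earlier results of these data known. Named members were, by rule, up to 8 called rises and 8 called falls per contrast, the brightest and the smallest p per family, a set of well-known genes, and up to 8 genes per contrast whose probe sets differed most; Hnrnph1, Hnrnpa1, Hnrnpul2, Hnrnpr, Rbm15 and further members were named after their values were seen. Alternatives were other scalings, an offset of 50, no trend, array weights, RNA quality covariates, signal filters, single extractions, gene means, other leading probe sets and leaving out each mouse. The comparison within the upper 25% of mean signal was added after the data were seen.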

Additional observations from a re-analysis of the deposited data

Results flagged for a closer look

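Among 248 groups of 4 to 10 mice examined at the named probe sets and at the RNA quality ratios, 14 held a mouse far from the others of its group, and chance alone flags about 5% of groups. NH162 (NH marks non-handled and H handled mice) was the highest of its group in the natural log of the 3′ to 5′ ratio of Actb (2.24) and of Gapdh (1.19), and the lowest in Srsf10 (8.84 on the log2 scale, next mouse 9.86) and Hnrnpl (6.37, next mouse 7.14). The part of RNA quality in its Srsf10 and Hnrnpl values was not tested. Among mice extracted with columns, NH155 was lowest at probe sets of Rbm33 (5.17) and Celf2 (5.44), NH156 was lowest in Rbm11 (5.04), H109 was highest in Elavl4 (11.79), and H110 was highest in Rbm19 (8.12). Among Trizol mice, H131 was lowest in Celf3 (5.95), H113 was highest in Rbm7 (11.97), NH147 was highest in Rbm11 (7.45) and lowest at a probe set of Srsf11 (10.49), and NH138 was lowest in Rbm28 (9.38).

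The handling effect differed between extractions at the _x_at probe set of Hnrnpk, by -1.76 ± 0.34 (limma interaction, adjusted p = 0.0287, n = 25). It was in the same direction under both extractions.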

How the results depend on the processing

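Counts of members called higher with handling were 10 after quantile normalization, 42 with arrays centered on the median, 8 with a common mean and variance per array, 9 without the trend, 1 without extraction as a term and 0 with Trizol only, against 17. They were 12 with RNA quality ratios as covariates and 12 with the mean over probe sets of a gene. With 1 mouse left out they were 11 to 20, the 11 without H108, H109 or H118. Counts lower were 4 with a common mean and variance, 4 with the mean over probe sets of a gene, 1 in the upper 50% of mean signal, 0 with Trizol only and 1 in the upper 25%, against 2, and 2 to 3 with 1 mouse left out. For extraction, members higher were 14 after quantile normalization, 34 centered on the median and 16 with a common mean and variance, against 9, and 9 to 13 with 1 mouse left out. Members lower were 14 centered on the median, against 31, and 29 to 32 with 1 mouse left out. The interaction call at Hnrnpk was lost after quantile normalization and without the trend (0 calls) and with any of 11 mice left out (0 to 1). Unequal handling effects were 18 with the offset and 17 with other probe sets in the upper 50%, against 9, and 6 to 13 with 1 mouse left out. Unequal extraction effects were 59 to 67. Shares of all genes called are not given for the other scalings, so those counts do not place members against the array.

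Signs turned with arrays centered on the median for extraction in Celf5 (0.18), Hnrnpll (0.17), Rbfox1 (0.23) and Rbm27 (0.23), and with the mean over probe sets for handling in Elavl2 (-0.036) and Rbm27 (-0.27) and for extraction in Hnrnpa2b1 (-2.11). The cause was not tested. No paired analysis was possible because handled and non-handled mice share no numbers in the labels.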
